A study of Homo sapiens with 30 samples.

Results

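The 34 genes described here belong to the integrated stress response and to the family of cytosolic aminoacyl-tRNA synthetases. They were followed while human embryonic stem cells turned into cardiomyocytes. Members were chosen by exact gene symbol from a fixed list, with the older synthetase names such as AARS, and all 34 were found among the 41495 entries of the time-course table. All 34 also passed the filter of at least 1 FPKM (fragments per kilobase of exon and sequencing depth, a level per transcript length) at 1 or more time points, as did 21715 entries in all. 19 of them are stress response genes and 15 are synthetases.

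RNA was sequenced from the H7 line, an established human embryonic stem cell line, and its derivatives in 30 libraries that form 15 groups of 2. The 11 time points (22 libraries) are hESC, which are undifferentiated cells grown in E8 medium, then D1, D2, D3, D4, D5, D6, D8, D10 and D15, and cardiomyocytes of day 31 purified on Percoll gradients. Per the labels' protocols, E8 was exchanged at the start of differentiation for RPMI1640 with B27 lacking insulin and 12 µM CHIR99021, an inhibitor of the kinase GSK3 that activates WNT signalling, for 24 hours. For the next 2 days the same base medium held 5 µM IWP4, an inhibitor of WNT secretion, and afterwards cells stayed in RPMI1640 with B27. The new medium and CHIR99021 came in at the same step, so what belongs to each cannot be told apart. The other 4 groups (8 libraries) were sorted. PMESO cells were ROR2-positive cells of day 3, set against D3 ROR2(-) cells, and CMESO cells were ROR2-positive, PDGFRa-positive cells of day 4, set against D4 ROR2(+)/PDGFRa(-) cells. All groups derive from 1 cell line, and whether each library stands for its own culture is not stated in the labels.

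In the integrated stress response, kinases that sense amino acid shortage, misfolded protein in the endoplasmic reticulum, viral RNA or low heme phosphorylate the translation factor eIF2. General translation then slows, while the messenger RNA of ATF4 is translated more. ATF4 protein activates genes of amino acid uptake, amino acid synthesis and tRNA charging, along with the factors DDIT3 (also called CHOP) and ATF3 and the feedback genes TRIB3 and PPP1R15A. Aminoacyl-tRNA synthetases load each tRNA with its amino acid, and some of them are held together in the multisynthetase complex. Because ATF4 is controlled largely at translation, its RNA level is not a measure of its activity.

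ATF4 binds DNA with C/EBP partners at a composite element, written here as TGATGCAA or, with 1 free position, TGATGNAA. The 300 bases around each RefSeq gene start (250 before, 50 after, build GRCh38.p14) were searched on both strands for these and for the cyclic AMP response element TGACGTCA, and TGATGCAA is 1 case of TGATGNAA. Promoter entries were found for 28 of the 34 genes, with 42 windows in all, and not for PSPH, SHMT2, SLC7A11, LARS, VARS and YARS. TGATGCAA stood in 7 of the 42 windows, each of another gene (AARS, CARS, CHAC1, IARS, MARS, NARS and TARS), and in 0.866% of all 35116 windows. TGATGNAA stood in 11 windows, adding ASNS, ATF3, GARS and SLC3A2, and in 3.62% of all windows. TGACGTCA stood in 1 window, that of PPP1R15A, and in 1.85% of all. The following 30-base stretches, read along the gene's own strand, show the match in capitals. They are printed because 6 of the 7 genes with the exact element are synthetases, and because ASNS, ATF3 and PPP1R15A carry results given further on. TTGCATCA is TGATGCAA read on the other strand.
CHAC1: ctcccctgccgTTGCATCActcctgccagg
AARS: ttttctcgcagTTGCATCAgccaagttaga
CARS: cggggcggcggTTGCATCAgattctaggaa
IARS: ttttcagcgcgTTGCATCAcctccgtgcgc
MARS: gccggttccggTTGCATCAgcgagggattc
NARS: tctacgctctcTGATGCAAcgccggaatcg
TARS: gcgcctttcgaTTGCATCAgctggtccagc
ASNS: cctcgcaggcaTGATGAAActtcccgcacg
ATF3: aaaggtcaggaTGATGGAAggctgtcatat
PPP1R15A: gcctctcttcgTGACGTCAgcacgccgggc

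The stretches lie at chr15:40953251-40953280 (plus strand, CHAC1), chr16:70289675-70289704 (minus, AARS), chr11:3057407-3057436 (minus, CARS), chr9:92293692-92293721 (minus, IARS) and chr12:57488053-57488082 (plus, MARS). Those of NARS (chr18:57621804-57621833, minus), TARS (chr5:33440956-33440985, plus), ASNS (chr7:97872458-97872487, minus), ATF3 (chr1:212565205-212565234, plus) and PPP1R15A (chr19:48872352-48872381, plus) complete the set. The matches are descriptions of these windows and say nothing of binding in these cells.

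The time-course table gives 1 FPKM value per gene and time point for its 2 libraries together, so time-course differences have no error and no test. A gene counted as higher or lower once its log2(FPKM + 1) differed by 1 or more, which is 2-fold, and counts are set beside the share of all 21715 kept entries called by the same rule. FPKM do not give the depth of a library, and fewer cells of a type cannot be told apart from less RNA per cell. The labelled cell types were checked against markers. The summed FPKM of 5 pluripotency markers was 2904 in hESC and 5.42 in cardiomyocytes, and that of 5 cardiomyocyte markers was 16.1 and 11939. Columns differed in composition, with small nucleolar RNAs making 18.1% of summed FPKM in hESC and 3.03% to 10.3% in the other columns. A rescaling of the columns by their median ratio over 7386 genes gave factors of 0.69 (D15) to 1.23 (D1), and counts after rescaling are given beside those of the 34 genes where they differ. The strand used for counting is not given in the sources used here, and 16 of the 34 genes share exonic bases with another gene in GENCODE 29. DDIT3 shares 355 of its 1307 exonic bases with MARS on the opposite strand, so reads from that stretch could go to either. Both genes are uncertain at least to that extent. DDIT3 also shares 105 bases with AC022506.1 on the same strand and 58 with MBD6 on the opposite one. MARS shares 519 of its 7028 with ARHGAP9 on the opposite strand and 63 with MIR6758 on the same one. The largest shares were 1985 of the 4455 exonic bases of ASNS (44.6%), with AC079781.5 on the same strand, and 847 of the 2058 of DDIT4 (41.2%), with DDIT4-AS1 on the opposite one.

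The set was at its highest at the start of the time course. Of the 34 genes, 14 were highest in hESC and 18 at D1, IARS was highest at D3 and ATF3 in cardiomyocytes. Among all kept entries, 17.5% were highest in hESC and 15.2% at D1, and among entries with a mean of at least 10 FPKM, which 31 of the 34 genes reach, 19.4% and 24.6%. With the columns rescaled 14 of the 34 were highest at D1 (9.04% of all kept entries), and with the hESC column left out 27 were (19.9%). At the other end, 13 of the 34 were lowest at D15 and 10 in cardiomyocytes, 23 together and 19 after rescaling. Among entries with a mean of at least 10 FPKM 49.7% were lowest in 1 of these columns, and 31.9% after rescaling. All 34 genes had their highest value at least 2.82 times their lowest, VARS being the flattest and GDF15 the steepest with a ratio of 368. The summed level of the 15 synthetases was 1992 FPKM in hESC, 2543 at D1, 862 at D4, 992 at D10 and 616 in cardiomyocytes.

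**Figure D1:**
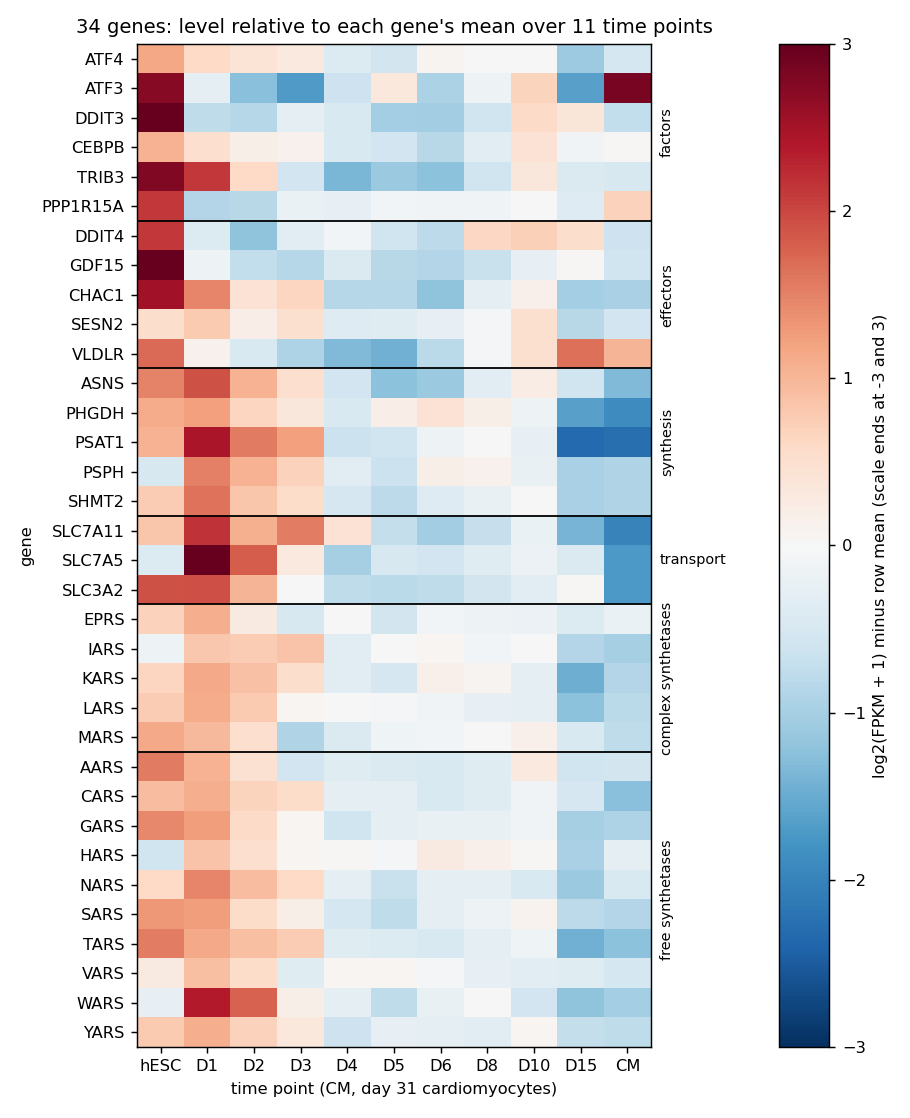
Level of each of the 34 genes (vertical axis, grouped by role) at the 11 time points (horizontal axis), as log2(FPKM + 1) minus the gene's own mean, with colour ends at -3 and 3. Red cells gather in the hESC and D1 columns, where 32 of the 34 genes have their highest value, and the exceptions are IARS with its highest value at D3 and ATF3 with its highest in cardiomyocytes.

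From hESC to D1 the set split by role. Of the 6 factors 3 and of the 5 effectors 4 were 2-fold lower at D1, with DDIT3, GDF15, ATF3 and PPP1R15A having the largest differences, while the amino acid transporter SLC7A5, the serine synthesis genes PSAT1 and PSPH, and the synthetases WARS and HARS were higher. In all 6 of the 34 genes were higher, against 12% of kept entries, and 7 were lower, against 11.1%. The share higher was 17.6% and the share lower 20.6%. For entries with a mean of at least 10 FPKM these shares were 16.3% and 10.1%. Among the 19 stress response genes 4 were higher and 7 lower, with a median change of -0.53, and among the 15 synthetases 2 were higher and 0 lower, with a median change of 0.37. The median over all kept entries was 0, and over entries with a mean of at least 10 FPKM it was 0.17. After rescaling the counts were again 6 and 7 (8.63% and 13.1% of kept entries), while the median of the 34 genes changed sign from 0.14 to -0.05. The rescaled medians were -0.70 for the stress response genes, 0.18 for the synthetases and -0.10 for all kept entries.

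DDIT3, a transcription factor that promotes cell death under lasting stress, stood at 682 FPKM in hESC. It then stood at 13.6 at D1, 12.7 at D2, 19.3 at D3, 17.2 at D4, 11.3 at D5, 11.1 at D6, 15.4 at D8, 35.8 at D10, 31.1 at D15 and 13.9 in cardiomyocytes. Every later time point was thus below the hESC value, and the D1 value was 49.98-fold lower. GDF15, a secreted stress hormone of the TGF-beta family, stood at 94.3 FPKM in hESC, 1.06 at D1 and between 0.256 (D6) and 1.37 (D15) at the other time points. Its D1 value was 88.6-fold lower. Counted from the largest decrease between hESC and D1, DDIT3 ranked 3 and GDF15 ranked 4 among 14563 protein-coding entries, and 36 and 37 among all kept entries.

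ATF3, a stress-induced repressor that is also an immediate early gene, went from 146 FPKM in hESC to 17.1 at D1, 8.55-fold lower. PPP1R15A (GADD34), the phosphatase subunit that reverses eIF2 phosphorylation, stood at 162 and 19.3, 8.37-fold lower. Both are quickly induced genes in other settings. DDIT4 (REDD1), an inhibitor of mTORC1, stood at 131 and 21.7, VLDLR, a lipoprotein receptor, at 52.9 and 17.2, and CHAC1, which degrades glutathione, at 44.95 and 21.1 FPKM. 4 of the 5 effectors were therefore 2-fold lower at D1, and the fifth, SESN2, a leucine-sensing inhibitor of mTORC1, stood at 12.4 and 14.8.

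ATF4 itself did not pass the 2-fold rule at this step. It stood at 549.9 FPKM in hESC, 370.4 at D1, 327 at D2, 300.3 at D3, 185 at D4, 169 at D5, 261 at D6, 248 at D8, 248 at D10, 116 at D15 and 169 in cardiomyocytes. It was the most abundant of the 6 factors at every time point from D1 on, with DDIT3 above it in hESC. TRIB3, a pseudokinase that restrains ATF4, stood at 44.8 and 28.4, and CEBPB, a C/EBP partner of ATF4, at 10.4 and 6.85, neither 2-fold apart.

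Of the 8 genes of amino acid transport and synthesis 4 were 2-fold higher at D1 and 0 lower. SLC7A5 (LAT1), the transporter of leucine and other large neutral amino acids, had 30.8 FPKM in hESC and 347 at D1, then 148 at D2, 51.2 at D3, 20.5 at D4, 29.7 at D5, 27.7 at D6, 32.1 at D8, 36.9 at D10, 30.4 at D15 and 11.9 in cardiomyocytes. The D1 value was 11.3-fold above hESC, with D2 the next highest time point. SLC3A2 (CD98), the heavy chain with which SLC7A5 and SLC7A11 pair at the membrane, stood at 526 and 538 in the same columns. SLC7A11, the cystine-glutamate exchanger, stood at 20.7 and 53.7 FPKM.

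The serine pathway was higher at D1 in part. PSAT1, its middle enzyme, stood at 147 FPKM in hESC, 393 at D1, 211 at D2, 169 at D3 and 45.4 at D4, and PSPH, its last enzyme, at 14.1, 59.6, 42.8, 32.9 and 15.7. PSPH was 4.23-fold and PSAT1 2.66-fold higher at D1. PHGDH, the first enzyme of the pathway, stood at 229.6 and 250.5, SHMT2, the mitochondrial enzyme that turns serine into glycine, at 108 and 199, and ASNS, asparagine synthetase, at 145 and 193. Those 3 were highest at D1 without reaching 2-fold.

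Among the synthetases WARS, which charges tryptophan tRNA and is also known as an interferon-induced gene, stood out. It stood at 55.3 FPKM in hESC, 349 at D1, 226 at D2, 74.7 at D3 and between 27.8 (D15) and 65.7 (D8) later, so that D1 was 6.30-fold above hESC. HARS, for histidine, stood at 19.7 and 55.9, 2.83-fold higher. Just under the rule was IARS for isoleucine (100.3 and 196). Further below it were NARS for asparagine (157 and 286) and VARS for valine (29.9 and 47.1). 5 of the 15 were highest in hESC: AARS (157 and 109), TARS (329 and 248), GARS (192 and 170), MARS (214 and 190) and SARS (194 and 186). None of the 5 synthetases of the multisynthetase complex (EPRS, IARS, KARS, LARS and MARS) passed 2-fold, their median change being 0.41. Of the 10 free ones 2 did, with a median of 0.23. Among all kept entries 12% were 2-fold higher at this step, and 16.3% of those with a mean of at least 10 FPKM. The difference between complex and free synthetases was not tested.

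**Figure D2:**
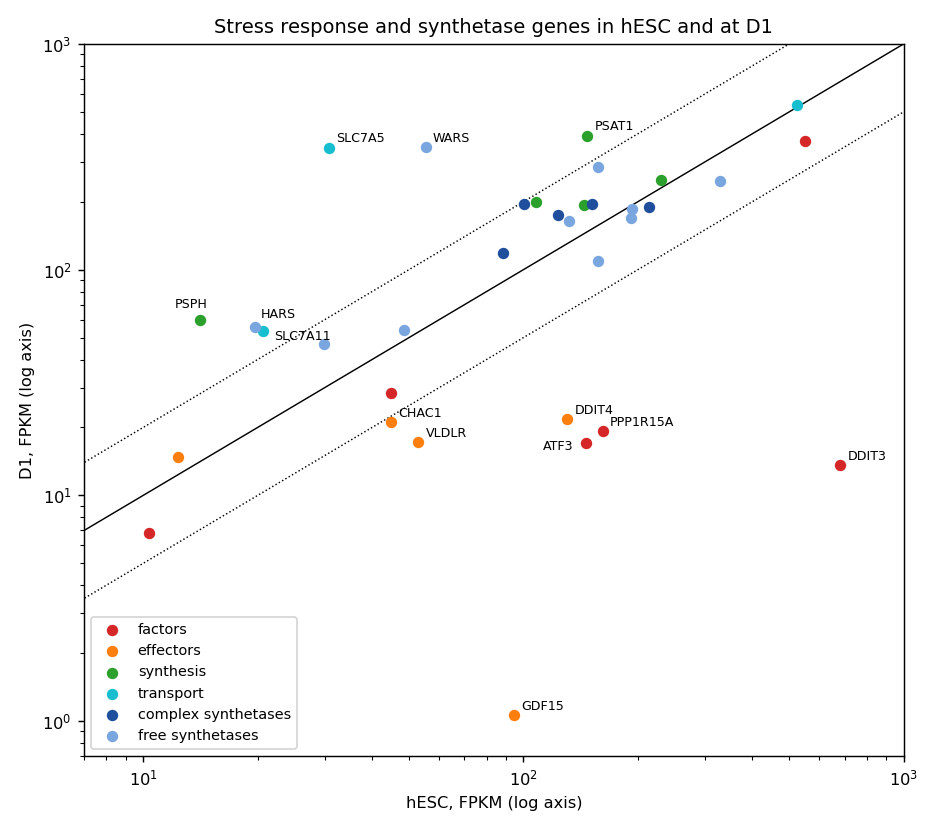
FPKM of the 34 genes in hESC (horizontal, log axis) and at D1 (vertical, log axis), coloured by role, with a solid line of equal values and dotted lines at 2-fold in raw FPKM. The 7 named genes under the lower line are stress factors and effectors (CHAC1 lies just beyond it), with DDIT3 at 682 and 13.6 and GDF15 at 94.3 and 1.06, and the 6 named genes above the upper line are of amino acid transport, serine synthesis and tRNA charging.

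Other features of the hESC column moved at the same step. Of 13 immediate early and heat shock genes, a list that does not include ATF3, all 13 were 2-fold lower at D1 (median -2.41), with a summed level of 869.6 FPKM in hESC and 167 at D1. HSPA1A stood at 120.7 and 10.8 and GADD45B at 72.3 and 7.201. The part of this list and of the small nucleolar RNA share in the lower stress factors was not tested. When the median of D1 to D10 took the place of D1, 0 of the 34 genes were higher (9.79% of kept entries) and 19 lower (11.8%) than in hESC. SLC7A5 and SLC7A11 were also 2-fold above both neighbours at D1. Together with ATF3 at D15 they are 3 of 34 genes with such a single-column departure (8.82%), and the share was 8.82% of protein-coding and 11.2% of all kept entries.

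From D1 to D4 the genes of the set that passed 2-fold were lower at each step, except ATF3 at D4. At D2 against D1, 0 genes were higher (2.66% of kept entries) and 4 were lower (2.34%): TRIB3, SLC7A5, SLC7A11 and CHAC1. With rescaling CHAC1 dropped under the rule, leaving 3 (1.98% of kept entries). The median change of the 34 genes was -0.57. At D3 against D2, 0 were higher (3.09%) and 6 lower (5.04%), with a median of -0.36. These 6 were WARS, SLC7A5, MARS, TRIB3, AARS and SLC3A2, and with rescaling AARS and SLC3A2 dropped under the rule, leaving 4 (3.99%). At D4 against D3, ATF3 was the 1 gene that was higher (6.79%) and 9 were lower (6.3%), with a median of -0.74. After rescaling 4 remained lower (4.46%). All kept entries had medians of -0.04, 0.01 and 0.02 at these steps as deposited. Entries with a mean of at least 10 FPKM had medians of -0.06, -0.07 and -0.16, with 1.87%, 7% and 9.63% of them lower.

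Genes of amino acid supply made up most of the lower calls at D4. PSAT1, at 169 FPKM on D3 and 45.4 on D4, had the largest difference of the step among the 34. ASNS, which makes asparagine from aspartate and glutamine, stood at 193 at D1, 105 at D2, 72.8 at D3, 33.4 at D4, 21.1 at D5, 22.8 at D6, 39.6 at D8, 59.5 at D10, 33.2 at D15 and 19.6 in cardiomyocytes. SHMT2, PSPH, SLC7A5 and SLC7A11 were 2-fold lower too, and with rescaling ASNS, SHMT2, PSPH, SLC7A11 and the synthetase TARS dropped under the rule. CHAC1 stood at 11.6 and 3.40 FPKM, IARS at 205 and 89.2 and TARS at 192 and 86.9.

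TRIB3 covered a wide range in these days. It stood at 44.8 FPKM in hESC, 28.4 at D1, 9.17 at D2, 3.54 at D3, 1.60 at D4, 2.099 at D5, 1.86 at D6, 3.44 at D8, 7.45 at D10, 3.94 at D15 and 3.80 in cardiomyocytes. Unlike DDIT3 and GDF15, whose difference lay between hESC and D1, TRIB3 stood lower at each time point up to D4. Over the same days the 5 pluripotency markers had summed levels of 2904 FPKM in hESC, 1984 at D1, 1710.5 at D2, 842 at D3 and 461 at D4. Whether fewer pluripotent cells account for the lower members was not tested.

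**Figure D3:**
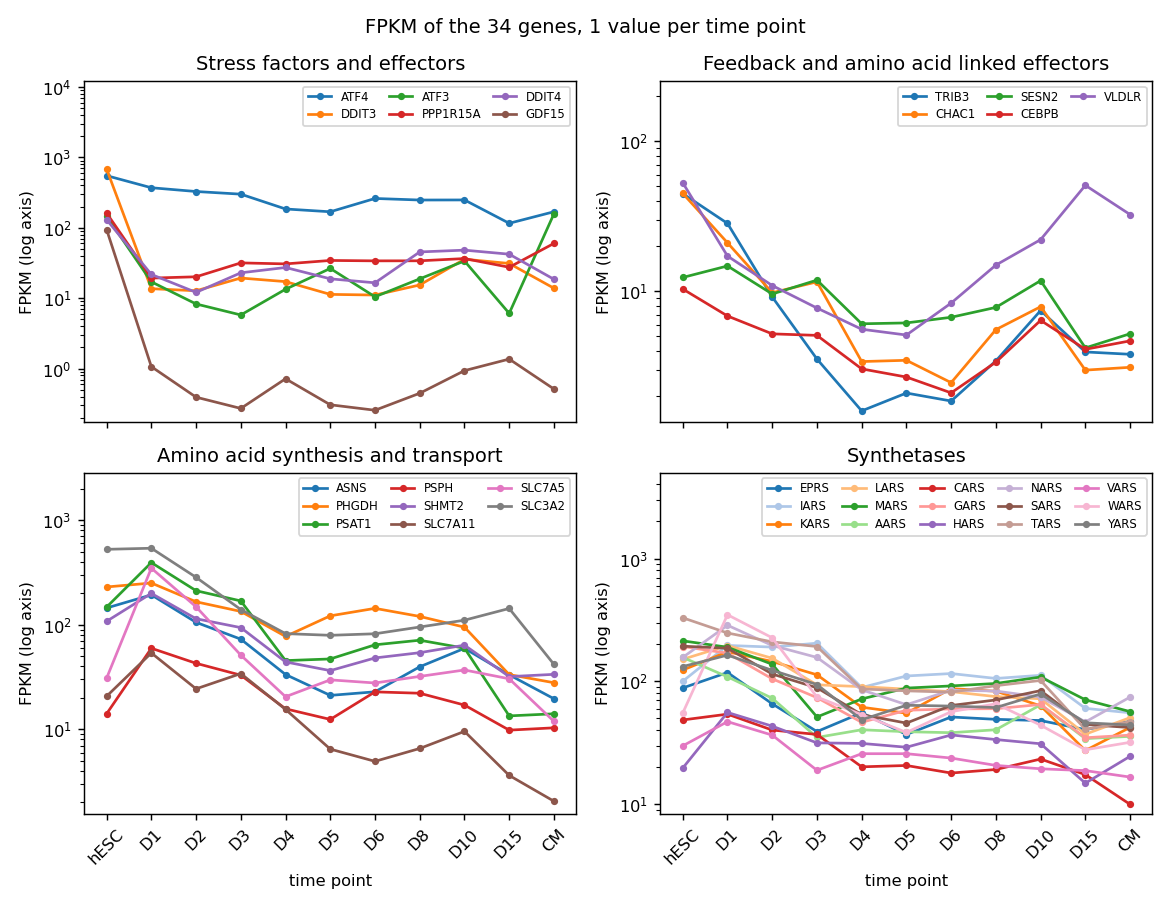
FPKM of the 34 genes (vertical, log axis; the panels have different ranges) at the 11 time points in order (horizontal; spacing is not to time), 1 line per gene, CM being cardiomyocytes. DDIT3 and GDF15 are at 682 and 94.3 in hESC and low from D1 on, SLC7A5 and WARS peak at D1 with 347 and 349, and ATF3 is high at both ends with 146 and 158.

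From D4 to D10 the set was nearly level at 2-fold. SLC7A11 was the 1 gene lower at D5 against D4 (1.26% lower and 3.68% higher among kept entries), at 15.5 and 6.47 FPKM. ATF3 was the 1 gene lower at D6 against D5 (6.18% lower and 1.21% higher), at 26.4 and 10.5. DDIT4 was the 1 gene higher at D8 against D6 (1.33% higher and 0.677% lower), at 16.5 and 45.4, and DDIT3 at D10 against D8 (1.16% higher and 1.11% lower), at 15.4 and 35.8. Below 2-fold the median of the 19 stress response genes was 0.21 at D8 and 0.42 at D10, against 0.00 and 0.02 for all kept entries, and that of the synthetases was -0.02 and 0.08. VLDLR went from 5.11 FPKM at D5 over 8.35, 14.96 and 22.1 at D6, D8 and D10 to 50.9 at D15, near its hESC value.

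The D15 column depended most on scaling. Compared with D10, VLDLR was the 1 gene higher (6.32% of kept entries) and 10 were lower (9.51%), with a median of -0.80. With the columns rescaled only ATF3, PSAT1 and PHGDH remained lower, and the share of kept entries that were lower was 3.40%. The median of the set was then -0.37, while that of all kept entries moved from -0.04 to 0.26. The D10 and D15 levels of PSAT1 were 59.7 and 13.4 FPKM, and those of PHGDH were 94.8 and 33.4. Among entries with a mean of at least 10 FPKM 19.6% were lower at this step, so the 10 lower genes are set against a larger background there. Other cell types differed in the D15 column too: stromal markers had a summed level of 851 FPKM at D10 and 3009.5 at D15, with 4 of 5 being 2-fold higher and 0 lower, and their part in the D15 values was not tested.

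In cardiomyocytes ATF3 was high, while genes of amino acid transport and synthesis and 3 of the 5 stress effectors were low against D10. Against D15, ATF3 and PPP1R15A were higher (7.23% of kept entries) and SLC3A2, SLC7A5, DDIT4 and DDIT3 were lower (4.07%). With rescaling PPP1R15A was no longer 2-fold higher and the lower genes were 7, with 2.58% of kept entries higher and 9.75% lower. Against D10, a step that leaves the D15 column aside, ATF3 was the 1 gene higher (8.14%) and 13 were lower (4.61%). After rescaling these counts were 1 (8.81%) and 12 (4.25%). The median was -0.83 against 0 for all kept entries, and 6.45% of entries with a mean of at least 10 FPKM were lower. All 3 transporters were lower (SLC7A11 at 9.56 and 2.06 FPKM, SLC7A5 at 36.9 and 11.9, SLC3A2 at 110.5 and 41.8), as were PSAT1 (59.7 and 14.1), PHGDH (94.8 and 27.9) and ASNS (59.5 and 19.6). Among synthetases CARS (23.4 and 9.99), TARS (102 and 47.1) and IARS (112 and 55.6) were lower, and IARS dropped under the rule with rescaling, leaving 2 synthetases. The other lower genes were the factor DDIT3 (35.8 and 13.9) and the effectors DDIT4 (48.1 and 18.6), CHAC1 (7.90 and 3.12) and SESN2 (11.8 and 5.22).

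ATF3 stood at 146 FPKM in hESC, 17.1 at D1, 8.28 at D2, 5.78 at D3, 13.4 at D4, 26.4 at D5, 10.5 at D6, 18.8 at D8, 33.8 at D10, 6.09 at D15 and 158 in cardiomyocytes. It was thus high at both ends and lower at every time point between, D10 being the highest of those. PPP1R15A stood at 27.5 at D15 and 59.96 in cardiomyocytes. In the same columns DDIT3 (31.1 and 13.9) and GDF15 (1.37 and 0.513) stood lower in cardiomyocytes, and CHAC1 (2.98 and 3.12) was nearly level. The 13 immediate early and heat shock genes had a summed level of 598 FPKM at D10, 342 at D15 and 1069.9 in cardiomyocytes. Against D15, 12 of the 13 were 2-fold higher in cardiomyocytes (10 after rescaling) and 0 lower, and 7 and 0 against D10. Cardiomyocyte markers had a summed level of 3736 FPKM at D10, 7529 at D15 and 11939 in cardiomyocytes. Stromal markers had 931 in cardiomyocytes, where 4 of 5 were 2-fold lower than at D15 and 0 higher. Cardiomyocytes were the only purified time point, so age and purification cannot be told apart, and the part of either in the ATF3 level was not tested.

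Across the whole course the set was lower at the end. In cardiomyocytes against hESC, 0 of the 34 genes were higher (18.7% of kept entries) and 26 were lower (16.9%), with a median of -1.68 against 0.03 for all kept entries. After rescaling the lower genes were 23 (13.9% of kept entries), and among entries with a mean of at least 10 FPKM 23.1% were lower as deposited. The 19 stress response genes held 16 of the lower calls (14 after rescaling, median -2.75) and the 15 synthetases 10 (9 after rescaling, median -1.56). The genes under 2-fold were ATF3, VLDLR (52.9 and 32.5 FPKM), PSPH (14.1 and 10.3), EPRS, IARS, HARS, VARS and WARS. All 3 transporters were lower, SLC3A2 at 526 and 41.8 leading them.

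**Figure D4:**
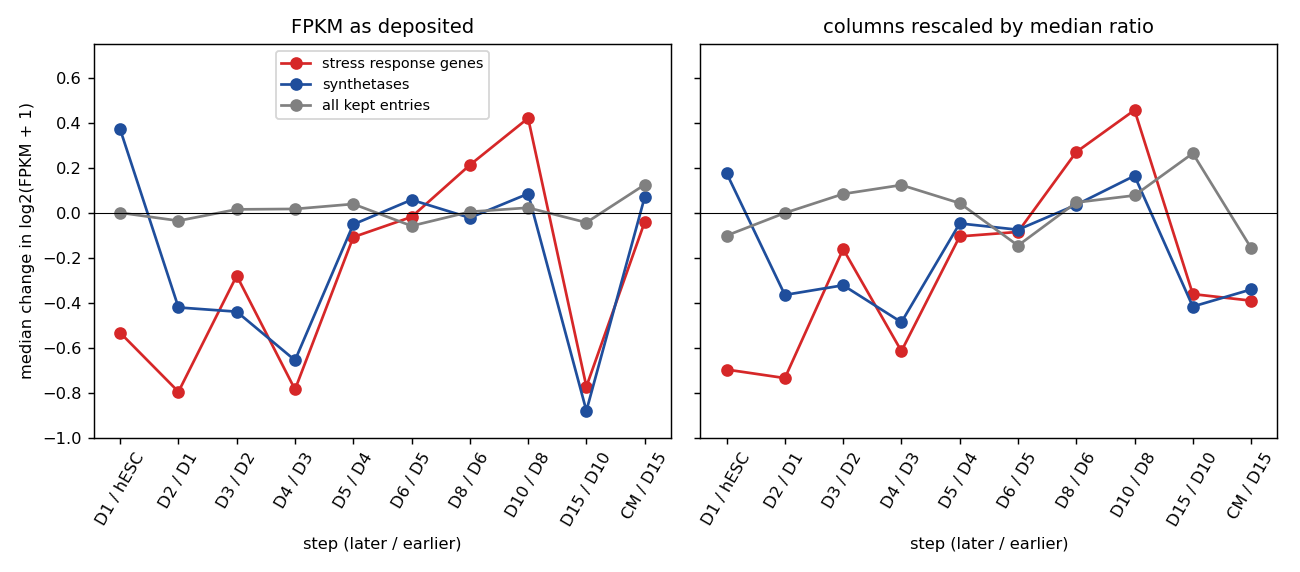
Median change in log2(FPKM + 1) (vertical) of the 19 stress response genes, the 15 synthetases and all 21715 kept entries at the 10 steps between neighbouring time points (horizontal), as deposited on the left and with rescaled columns on the right. The lists part at D1 against hESC (-0.53 and 0.37 as deposited), are both below all entries from D2 to D4, and at D15 against D10 their medians of -0.77 and -0.88 become -0.36 and -0.42 with rescaling.

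The sorted populations give a comparison with the authors' own test. In primitive mesoderm of day 3 all but 1 of the listed genes of the set were lower in the ROR2-positive cells. The authors' deposited table, which holds genes with a q-value under 0.05, lists 18 of the 34 genes (20.6% of kept time-course entries are in it), 17 of them lower in PMESO and 1 higher. That share is over all kept entries, while 31 of the 34 genes have a time-course mean of at least 10 FPKM. The share among such entries was not computed for either sort. Of all 4648 genes in the authors' deposited table, 44.8% were lower and 55.2% higher in PMESO. The gate held in that table, ROR2 standing at 5.90 FPKM in D3 ROR2(-) and 72.0 in PMESO. Absence from a sort table does not show that a gene was equal in both populations, and neither ATF4 nor DDIT3 is in that of day 3.

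SLC7A11 (hg19 locus chr4:138948576-139163503) stood at 54.7 FPKM in D3 ROR2(-) and 12.9 in PMESO in the authors' deposited table, a log2 fold change of -2.08. ASNS (chr7:97481430-97501854) followed in the authors' deposited table at 142 and 37.1, a log2 fold change of -1.94. CHAC1 (16.6 and 6.59), TRIB3 (8.20 and 3.25), PSAT1 (157 and 65.2) and PHGDH (149.6 and 67.3) were the other genes more than 2-fold lower in the authors' deposited table. All 6 had a q-value of 0.000375 there, the smallest among the 34 genes at day 3. PPP1R15A, SESN2, VLDLR, SLC7A5, SLC3A2, SARS and TARS had the same q-value in the authors' deposited table, so it does not set the 6 apart. The 6 are genes of cystine and serine supply, asparagine synthesis, glutathione breakdown and ATF4 feedback.

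The remaining lower genes differed by less than 2-fold. The authors' deposited table has SLC3A2 at 199 FPKM in D3 ROR2(-) and 104 in PMESO, SLC7A5 at 44.0 and 23.8, and VLDLR at 16.4 and 8.45. Of the synthetases it lists TARS (219 and 118), GARS (88.2 and 53.04), NARS (156 and 103), SARS (93.7 and 65.7) and CARS (39.3 and 28.95), all lower in PMESO in the authors' deposited table with a median log2 fold change of -0.60. These 5 are free synthetases. PPP1R15A (chr19:49375649-49379314) was the 1 gene higher in PMESO in the authors' deposited table, at 34.1 and 56.0.

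Other genes moved with this sort. Of 5 pluripotency markers 4 are in the authors' deposited table, all lower in PMESO: POU5F1 stood at 449 and 87.3, NANOG at 14.999 and 2.19, DPPA4 at 155 and 65.8 and LIN28A at 413 and 309. All 5 mesoderm markers in the authors' deposited table were higher in PMESO. So were 3 of 4 definitive endoderm markers in the authors' deposited table, SOX17 standing at 0.664 and 12.5, FOXA2 at 1.15 and 9.402 and AFP at 1.74 and 3.53, and 3 of 5 stromal markers. Of 13 immediate early and heat shock genes 7 were higher and 4 lower in it. The part of remaining pluripotent cells, or of endoderm or stromal cells, in the values of the 18 genes was not tested.

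In cardiac mesoderm of day 4 the set split. The authors' deposited table lists 11 of the 34 genes (21.3% of kept time-course entries are in it), with 6 higher and 5 lower in CMESO than in D4 ROR2(+)/PDGFRa(-) cells. Of the 4825 genes in the authors' deposited table, 47.5% were higher and 52.5% lower. PDGFRA stood at 8.28 and 304 FPKM there, as the gate requires. ATF3 (chr1:212738676-212794119) was the largest increase among the 34, at 10.9 and 50.3 FPKM in the authors' deposited table (log2 fold change 2.20), followed by VLDLR at 5.31 and 11.6 (1.13). PPP1R15A (38.5 and 61.2), SHMT2 (40.5 and 54.6), ATF4 (178 and 228) and PHGDH (62.4 and 77.1, q-value 0.0362) were higher by less than 2-fold in the authors' deposited table.

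SLC7A11 was the largest decrease at day 4 as well, at 8.003 FPKM in the PDGFRa-negative cells and 1.58 in CMESO in the authors' deposited table (log2 fold change -2.34). VARS (36.0 and 23.7), SLC7A5 (27.1 and 19.7), ASNS (27.5 and 20.2) and PSAT1 (42.1 and 32.4) were lower by less than 2-fold in the authors' deposited table. Of the 8 genes listed in both sort tables, SLC7A11, SLC7A5, ASNS and PSAT1 were lower and PPP1R15A higher in the positive cells of either day in the authors' deposited tables. SHMT2, PHGDH and VLDLR were lower in PMESO and higher in CMESO there, and the difference between the days was not tested. Of the 34 genes 13 are in neither table, among them DDIT3, GDF15, PSPH and WARS. Immediate early and heat shock genes were also higher in CMESO, with 8 higher and 1 lower of 13 in the authors' deposited table, and FOS stood at 165 and 333 FPKM. Pluripotency markers were lower, 4 of 5 in the authors' deposited table, POU5F1 standing at 63.3 and 9.30. All 5 cardiomyocyte markers were higher in CMESO in the authors' deposited table, and of 5 stromal markers 3 were higher and 1 lower. Of 4 endothelial markers only KDR is in the authors' deposited table, higher in CMESO at 4.18 and 162.9. Of 5 mesoderm markers 1 was higher there, the gate gene PDGFRA, and 2 were lower, T and EOMES. Of the endoderm markers in the authors' deposited table SOX17 stood at 10.1 and 2.295, FOXA2 at 23.04 and 3.16 and AFP at 0.314 and 1.77. The part of these lists in the values of the 11 genes was not tested.

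**Figure D5:**
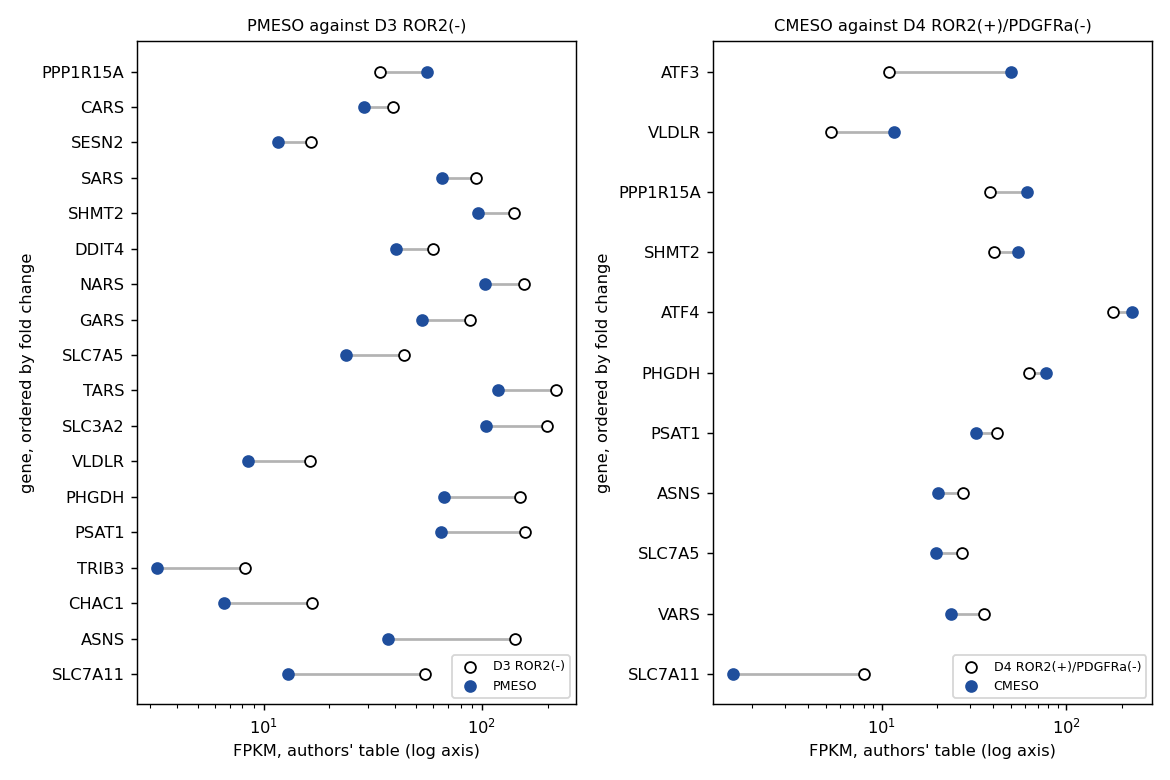
The authors' FPKM (horizontal, log axis) of the genes listed in each of their sort tables, ordered by fold change: 18 genes at day 3 (left) and 11 at day 4 (right), with open circles for the negative and filled circles for the positive population and no error bars, because the tables give 1 value per population. At day 3 the filled circles lie to the left for 17 of 18 genes, and at day 4 for 5 of 11.

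Further genes of the same pathways gave a mixed picture between hESC and D1. Of 27 kept ATF4 target genes outside the set, 7 were higher and 5 lower at D1 (6 and 5 after rescaling). The neutral amino acid transporter SLC1A4 stood at 0.555 and 11.1 FPKM, while KLHL24 stood at 118 and 10.4 and TXNIP, an inhibitor of thioredoxin, at 219 and 25.4. Of 8 other cytosolic synthetase and scaffold genes 3 were higher and 0 lower. They were FARSB (9.69 and 49.3) and FARSA (24.4 and 69.5), the subunits of phenylalanyl-tRNA synthetase, and AIMP2 (7.28 and 34.8), a scaffold of the complex. Of 17 mitochondrial synthetases 4 were higher and 1 lower (2 and 1 after rescaling).

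Upstream of ATF4 little passed the rule. A list of 13 genes held eIF2 kinases, eIF2 and eIF2B subunits and 1 further phosphatase subunit for eIF2. Of these 0 were higher and 1 lower at D1, EIF2AK3 (PERK), the kinase of the endoplasmic reticulum, standing at 51.5 and 13.7 FPKM. EIF2S1, an eIF2 subunit, stood at 98.7 and 198.2, a change of 0.9985 in log2(FPKM + 1) and so just under the rule. Of 21 chaperone and ATF6 or XBP1 genes of the endoplasmic reticulum 2 were higher and 2 lower (0 and 2 after rescaling), with HERPUD1 at 73.9 and 20.2 and DNAJB9 at 29.4 and 9.14. Of 14 p53 targets 1 was higher (MDM2, 27.9 and 65.2) and 4 lower, with BTG2 at 21.4 and 1.71 and BBC3 at 15.1 and 3.01. Of 10 further serine, glycine and one-carbon genes MTHFD1L (33.1 and 69.9) was the 1 higher and 0 were lower, and after rescaling it was under 2-fold.

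In cardiomyocytes against D10 the same lists stood as follows. Of the 27 further ATF4 targets 3 were higher and 7 lower (4 and 6 after rescaling), with CBS at 92.3 and 24.1 FPKM and NDRG1 at 6.29 and 25.2. Of the 8 other cytosolic synthetase genes EEF1E1 was the 1 lower (32.1 and 14.6), and of the 17 mitochondrial synthetases 0 passed in either direction. The 13 eIF2 genes had none past 2-fold, and the 21 genes of the endoplasmic reticulum had PDIA4 lower (100.3 and 48.9), which was under 2-fold after rescaling. Whether the 34 genes differ from these lists in their 13 lower calls was not tested.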

How the data were processed

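RNA-seq tables of 30 libraries were used as deposited. The submitters' processing notes name TopHat2 2.0.8b, Bowtie2 2.1.0.0 and Cufflinks with the build hg19. Annotation, strandedness and between-column scaling were not given in the sources used here. The authors' time-course table holds FPKM, 1 value per gene and time point, the unit being taken from the pipeline and the values. Per the file headers the authors' sort tables hold FPKM per population, the log2 fold change, its linear ratio, a test score, a p-value and a q-value, and only genes with a q-value under 0.05 are in them. A time-course entry was kept at 1 FPKM or more in at least 1 column. Differences were computed in log2(FPKM + 1), which understates low genes, and counted from 1 upwards. The planned limma test needs the libraries apart and was not run. The counting was tested on simulated data. Precision is unknown, because FPKM carry no depth. The alternatives were a pseudocount of 0.1, a 1.5-fold threshold, rescaled columns, protein-coding genes only, no filter, other reference columns and stricter sort rules. All 34 genes are named by role, and of further lists at most the 3 largest differences at D1 against hESC and in cardiomyocytes against D10. POU5F1 and the other markers, FOS and the gate genes ROR2 and PDGFRA are named as checks. The members and lists were chosen with earlier results of these data known. Gene types and exon overlap came from GENCODE 29 by name (16642 of the kept entries matched), which is of another build. Python 3.11.15, pandas 2.3.3, NumPy 2.4.6 and matplotlib 3.10.9 were used.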

Additional observations from a re-analysis of the deposited data

How the results depend on the processing

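No paired analysis was possible because the deposited columns pool the libraries of a group, and for the same reason no library could be left out in turn. No called value changed direction with rescaled columns or a pseudocount of 0.1, while other reference columns did change some. PSAT1 and SLC7A11, called higher at D1, were below hESC with the median of D1 to D10 in place of D1. For PSAT1 the difference then passed 2-fold. SLC7A5, called lower in cardiomyocytes against hESC, stood above hESC at D10. The median of the 34 genes at D1 against hESC changed sign from 0.14 to -0.05 with rescaled columns. A 1.5-fold threshold gave, with the share of kept entries in parentheses, 10 of the 34 genes higher at D1 against hESC (22.9%), 16 lower at D2 against D1 (7.23%), 2 higher at D3 against D2 (10.8%), 21 lower at D4 against D3 (16.5%), and 2 higher (11.2%) and 2 lower (4.97%) at D5 against D4. It gave 4 higher at D6 against D5 (7.06%), 6 at D8 against D6 (4.21%) and 5 at D10 against D8 (5.01%). It further gave 23 lower at D15 against D10 (22.9%), 5 higher (23.5%) and 9 lower (11.99%) in cardiomyocytes against D15, and 2 higher (16.97%) and 21 lower (12.4%) against D10. Rescaled columns gave 3 lower at D2 (1.98%), 4 lower at D3 (3.99%), 4 lower at D4 (4.46%) and 3 lower at D15 (3.40%). In cardiomyocytes against D15 they gave 1 higher (2.58%) and 7 lower (9.75%). A pseudocount of 0.1 gave 2 higher at D4 (14.6%), 2 lower at D5 (4.16%), 2 higher at D8 (5.34%) and 2 higher at D10 (5.21%). The genes it added at these steps (GDF15, CHAC1, TRIB3) were of low level. It also gave 6 lower at D2 (6.37%), 10 lower at D4 (10.2%) and 5 lower in cardiomyocytes against D15 (12.4%). At D2 it added GDF15 and ATF3, with ATF3 standing at 17.1 FPKM at D1 and 8.28 at D2. With the median of D1 to D10 in place of D1, 0 were higher (9.79%) and 19 lower (11.8%) than in hESC. Sort calls that also had to be 2-fold left 0 higher and 6 lower at day 3, and 1 higher and 1 lower at day 4, counted in log2(FPKM + 1), on which VLDLR at day 4 lies just under the rule. Of 408 single values, 23 crossed the 2-fold line with rescaling and 8 with the smaller pseudocount. The background of entries with a mean of at least 10 FPKM, the peak counts without the hESC column or the D15 column, and the rescaled peak counts were chosen after seeing the data. Values near 1 FPKM, as for GDF15 after hESC, are the least precise.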
